A study of Mus musculus with 37 samples.

Results

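The genes described here act in the cell cycle and in DNA replication, in 5 types of mouse myeloid cell that were left untreated or were exposed to the anti-inflammatory cytokine IL-10, to the bacterial endotoxin LPS, or to both. They were chosen by name stem (Cdk, Cdkn, Ccn, Cdc, Mcm, Orc, Prim, Pol, Rfc, Rrm, E2f, Aurk, Bub, Plk, Cenp, Ncap, Kif and a few single names such as Top2a, Tpx2 and Anln). Of the 6509 genes in the table, 88 names matched, 1 of them (Kif1a) was left out by the rule, and the remaining 87 genes made up the set. A gene had to reach a level of 10 in at least 1 group, and none of the 87 fell below it. The members closest to that limit were Cdc42ep5, with a highest level of 27, and Kif21a, with 37. A name stem also collects genes with no part in division, so the members were divided by role. The classes were 18 for DNA replication, 27 for mitosis, 11 regulators (cyclins, their kinases and inhibitors, and E2F factors) and 31 others. Among the others were transport kinesins, transcriptional CDKs, partners of the GTPase Cdc42 and other Cdc names such as Cdc14a and Cdc34. A place among the others does not mean that a gene has no part in division. Some familiar cell cycle genes, Mki67, Pcna, Tyms, Ccnb1, Cdk1 and Plk1 among them, are not analysed here.

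Peritoneal macrophages were elicited with thioglycollate and selected by adherence, neutrophils came from the bone marrow of pooled mice and were kept overnight with GM-CSF, splenic dendritic cells (sDCs) were enriched with beads, and mast cells and eosinophils were grown from bone marrow. All cells carried the strain label C57Bl6cJ, with no genetic change named. IL-10 and LPS were each used at 100 ng/ml for 4 h, and cells given both received IL-10 for 4 h and then LPS for 4 h. Macrophages, neutrophils, sDCs and mast cells were untreated, or had IL-10, LPS or both, and eosinophils were untreated or had LPS, which gives 18 groups of 2 replicates. The sources used here do not state when untreated cells and cells given only LPS were harvested, so that an agent and a difference in culture time cannot be told apart.

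A level below is the deposited value for a gene: normalized sequence tags, averaged by the authors over the 2 replicates and summed here over the transcripts of the gene. The values are not divided by transcript length and are compared only within a gene. Since 1 mean stands for each group, there is no SD and no p-value, and the number of reads behind a mean is unknown. A change was called when it reached 2-fold on the log2(level + 1) scale, and each count of called members is set beside the percentage of all genes of the table called in the same way. In RNA from whole populations, fewer cells of a type and less RNA per cell cannot be told apart.

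Proliferating cells first license replication origins, when ORC and Cdc6 load the Mcm helicase on DNA, and then copy the genome with primase, the DNA polymerases and the clamp loader Rfc. In mitosis, condensin and topoisomerase II shape the chromosomes, kinesins and Tpx2 build the spindle, and the APC/C with Cdc20 triggers their separation. Cyclins with CDKs drive these steps, inhibitors of the Cdkn1 and Cdkn2 families hold them back, and E2F factors control transcription of many S phase genes. Myeloid precursors in bone marrow divide, whereas mature neutrophils, macrophages and dendritic cells for the most part do not.

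Promoters are shown first for mitosis and replication members and for Ccnb2, whose levels are followed across the cell types below. Those of 2 regulators called with LPS or IL-10 come after them. Each runs from 250 bases before to 30 bases after the start site of the leading transcript, on the NCBIM37 genome (mm9) with GENCODE vM1 start sites, and all 87 members had a matching transcript. Capitals mark 3 elements on either strand: the E2F site, searched as TTTCGCGC or TTTGGCGC or TTTCCCGC or TTTGCCGC, the cell cycle genes homology region (CHR, TTTGAA), which is known from promoters of mitotic genes, and the CCAAT box (CCAAT). The mitotic genes come first, Top2a (topoisomerase II alpha, chr11:98885474-98885753, minus strand), Kif11 (the bipolar spindle kinesin, chr19:37450643-37450922, plus strand) and Ccnb2 (cyclin B2, chr9:70269332-70269611, minus strand). Ccnb2 is classed with the regulators, so it is not among the mitosis promoters counted below.
Top2a: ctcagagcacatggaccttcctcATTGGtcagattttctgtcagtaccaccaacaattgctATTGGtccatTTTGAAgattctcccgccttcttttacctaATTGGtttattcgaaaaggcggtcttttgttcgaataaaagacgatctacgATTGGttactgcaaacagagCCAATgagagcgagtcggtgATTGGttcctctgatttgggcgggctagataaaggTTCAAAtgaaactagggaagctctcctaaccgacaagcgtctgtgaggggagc
Kif11: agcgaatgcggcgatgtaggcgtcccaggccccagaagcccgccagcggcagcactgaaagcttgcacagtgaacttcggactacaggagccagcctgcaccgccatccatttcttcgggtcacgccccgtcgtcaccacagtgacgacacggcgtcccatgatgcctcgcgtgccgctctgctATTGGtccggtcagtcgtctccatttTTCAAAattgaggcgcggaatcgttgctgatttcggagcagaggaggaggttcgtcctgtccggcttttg
Ccnb2: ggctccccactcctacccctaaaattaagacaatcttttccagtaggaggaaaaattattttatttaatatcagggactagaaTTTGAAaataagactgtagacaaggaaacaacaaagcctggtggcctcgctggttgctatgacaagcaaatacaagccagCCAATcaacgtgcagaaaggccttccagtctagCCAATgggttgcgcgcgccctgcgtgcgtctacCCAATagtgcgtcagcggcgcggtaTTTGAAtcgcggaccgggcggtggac

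The replication genes are Mcm5 and Mcm6, subunits of the helicase (chr8:77633273-77633552, plus strand, and chr1:130256204-130256483, minus strand), and Cdc6, the helicase loader (chr11:98769215-98769494, plus strand). The annotated Cdc6 gene begins at 98769115, before this window, so the region ahead of its earliest start was not searched.
Mcm5: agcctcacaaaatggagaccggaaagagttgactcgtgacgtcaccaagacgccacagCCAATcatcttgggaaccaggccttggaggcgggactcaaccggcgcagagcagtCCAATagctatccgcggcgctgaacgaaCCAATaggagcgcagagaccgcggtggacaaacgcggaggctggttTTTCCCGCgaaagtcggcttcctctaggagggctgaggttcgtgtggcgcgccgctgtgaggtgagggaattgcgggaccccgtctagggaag
Mcm6: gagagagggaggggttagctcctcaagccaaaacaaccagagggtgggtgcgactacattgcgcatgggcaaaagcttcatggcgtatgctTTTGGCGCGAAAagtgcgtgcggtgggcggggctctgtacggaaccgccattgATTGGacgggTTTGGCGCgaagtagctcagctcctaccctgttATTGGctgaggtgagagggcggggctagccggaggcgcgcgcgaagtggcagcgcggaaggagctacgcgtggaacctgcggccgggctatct
Cdc6: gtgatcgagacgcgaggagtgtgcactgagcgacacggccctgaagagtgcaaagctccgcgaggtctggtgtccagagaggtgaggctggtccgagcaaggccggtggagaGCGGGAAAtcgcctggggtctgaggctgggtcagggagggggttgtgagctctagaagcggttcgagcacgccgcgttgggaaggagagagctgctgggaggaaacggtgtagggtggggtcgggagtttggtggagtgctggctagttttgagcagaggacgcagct

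The regulators called with LPS or IL-10 are Ccnd2, which encodes cyclin D2 (chr6:127101037-127101316, minus strand), and Cdkn2d, which encodes the CDK inhibitor p19INK4d (chr9:21095624-21095903, minus strand).
Ccnd2: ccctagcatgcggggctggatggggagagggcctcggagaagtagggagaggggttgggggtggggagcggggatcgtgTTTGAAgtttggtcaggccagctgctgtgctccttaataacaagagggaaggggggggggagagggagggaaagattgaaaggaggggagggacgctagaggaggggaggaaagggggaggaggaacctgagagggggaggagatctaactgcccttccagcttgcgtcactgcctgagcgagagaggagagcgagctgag
Cdkn2d: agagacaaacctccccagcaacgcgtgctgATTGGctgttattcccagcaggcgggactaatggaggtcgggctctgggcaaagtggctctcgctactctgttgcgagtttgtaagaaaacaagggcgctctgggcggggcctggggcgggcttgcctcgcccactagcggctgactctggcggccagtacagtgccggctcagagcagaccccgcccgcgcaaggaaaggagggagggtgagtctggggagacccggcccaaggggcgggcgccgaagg

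CHR letters were common in mitosis promoters and E2F letters in replication promoters. CHR was present in 15 of 27 mitosis promoters (55.6%) and in 0 of 18 replication promoters, against 12.2% of the 6492 promoters of all genes of the table that could be matched. E2F letters were found in 6 of 18 replication promoters (33.3%) and 3 of 27 mitosis promoters (11.1%), with 3.67% among all genes. The 3 mitosis promoters with E2F letters, of Kif15, Ncapd2 and Ncapg2, held CHR as well. CHR and CCAAT occurred together in 10 mitosis promoters (37%) and in 4.53% of all. The sequence TTCNNNGAA, to which STAT factors bind, was in 2 of the 87 promoters (2.3%) and in 6.78% of all, and neither Ccnd2 nor Cdkn2d was among the 2. Where letters are absent, only this window was searched, and a match is a description, not a bound site.

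Most defining markers were highest in the cell type named in the labels. Cd68 was at 77545.5 to 185724.5 in macrophages, Mmp8 at 17265 to 122455 in neutrophils and Ccr7 at 94827 to 185338 in sDCs. Tpsb2 was at 187513.5 to 187854.5 in mast cells and Epx at 185338 in both eosinophil groups. The value 185338 is the maximum for a single transcript in all 18 columns, and a gene sum can pass it. Epx and untreated Ccr7 lay at this value, the top of the scale. Tpsb2 in mast cells and Cd68 in untreated macrophages lay above it. There were exceptions. The dendritic cell marker Itgax was at 4075.5 in untreated sDCs and 13861 in untreated macrophages. With LPS it was at 818.5 in sDCs, 7512.5 in macrophages, 3504.5 in neutrophils and 1319 in eosinophils. The neutrophil marker Ly6g was at 161.5 in untreated neutrophils and 188.5 in untreated eosinophils. The macrophage marker Emr1 was at 13108 to 21201 in macrophages and at 22514.5 in eosinophils with LPS. With LPS the dendritic cell marker Clec9a was at 49.5 in sDCs and 103.5 in neutrophils. Genes of other cells or stages were measured too, and some of those that moved with a result are given beside it.

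The plainest difference among these genes lay between cell types at rest, not between treatments. Untreated neutrophils and eosinophils held the mitotic genes and part of the replication genes at far higher levels than untreated macrophages, sDCs or mast cells. Levels compared between cell types also carry library type, since sDC and some mast cell libraries were TruSeq preparations. Of the 86 members with an untreated level of at least 10, eosinophils were highest in 41 and neutrophils in 19, compared with 10 in macrophages and 8 each in sDCs and mast cells. The share of all genes highest in each cell type was not counted, so these counts have nothing beside them. In 30 members both the neutrophil and the eosinophil level were at least 2-fold above each of the other 3 cell types. That is 34.9% of the 86, with 4.48% among the 6470 genes of the table measured at rest. The pattern was defined after the levels had been seen. All 30 came from the mitosis, replication and regulator classes: 19 of 27 mitosis members, 6 of 18 replication members and 5 of 11 regulators. None came from the 30 others measured at rest.

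**Figure D1:**
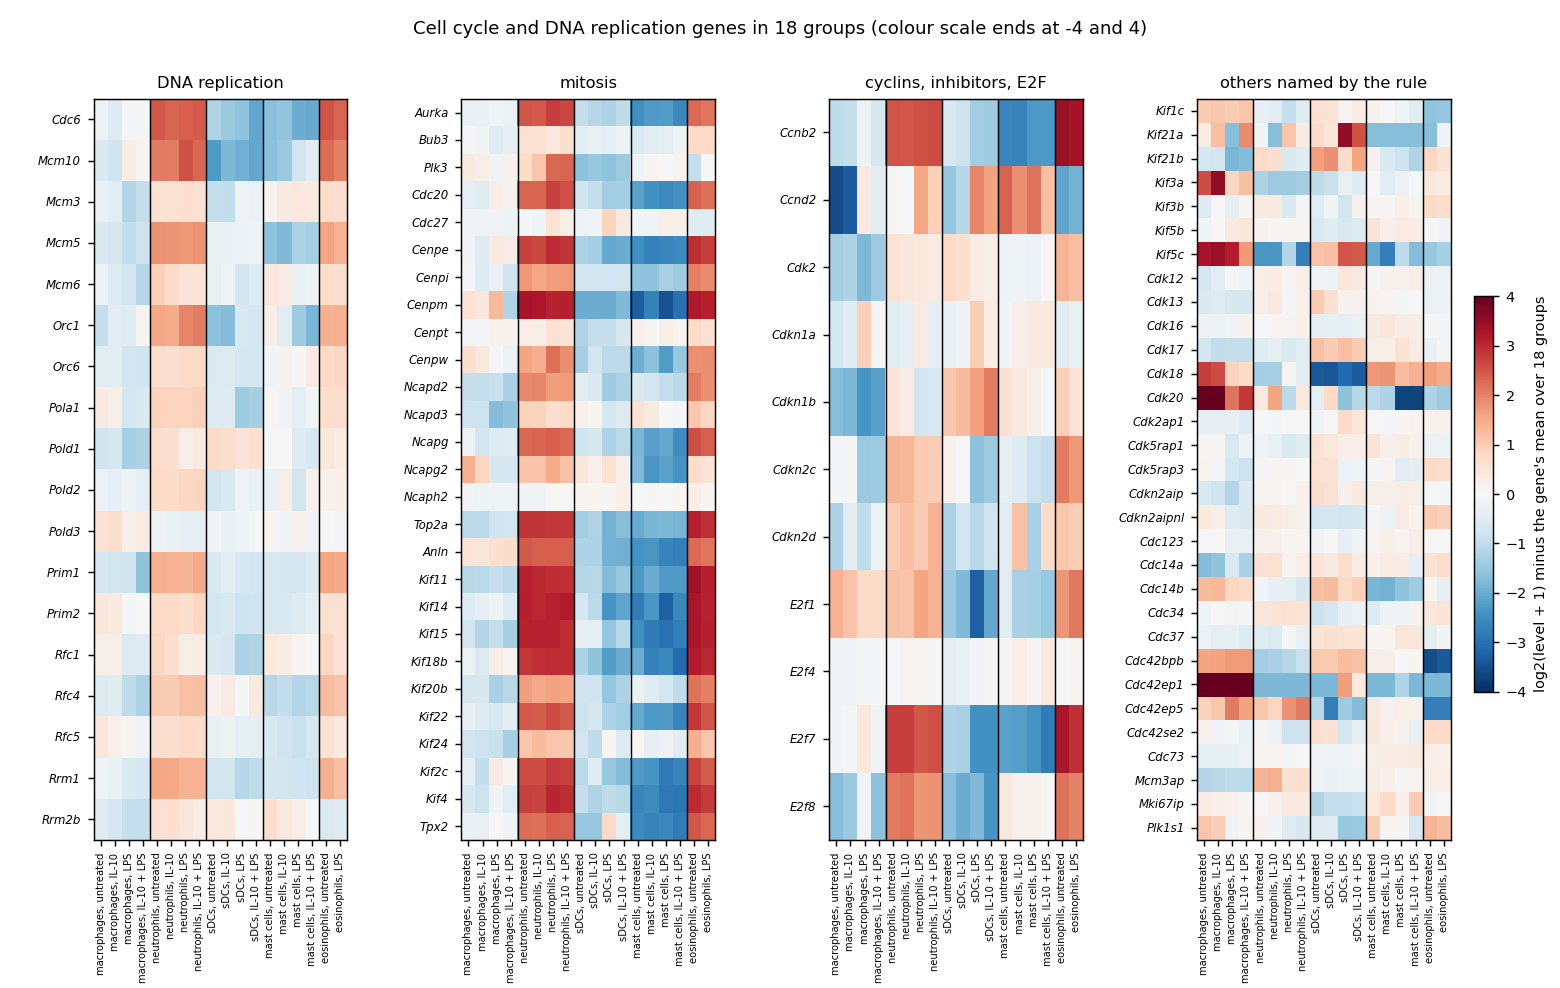
Levels of all 87 members in the 18 groups, in 4 panels by role. Each row is a gene, each column a deposited group mean, vertical lines separate cell types, and colour is log2(level + 1) minus the mean of the gene over the 18 groups. Red blocks in the neutrophil and eosinophil columns of the mitosis panel stay alike across treatments.

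Among the mitosis genes, Top2a had an untreated level of 8354.5 in neutrophils and 9978.5 in eosinophils, beside 548.5 in macrophages, 453 in sDCs and 284 in mast cells. The lower of the neutrophil and eosinophil levels was 15.2-fold above the highest of the other 3 cell types. Kif11 had the widest such gap, 18.3-fold, with 3060 in neutrophils and 3676 in eosinophils beside 166 in macrophages, 162.5 in sDCs and 73 in mast cells. Neutrophils and eosinophils thus stood together and the other 3 cell types stood together, with mast cells lowest for both genes.

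The kinesins Kif14, Kif15, Kif4, Kif18b, Kif2c and Kif22, which act on chromosomes and the spindle, had gaps from 6.92-fold (Kif22) to 12.2-fold (Kif14). Kif20b (3.79-fold) and Kif24 (2.05-fold), placed in the same role group, had the pattern with smaller gaps. Kif14 read 535 in neutrophils and 604 in eosinophils, with 43, 37 and 8 in macrophages, sDCs and mast cells. Aurka, the centrosomal mitotic kinase, had 1293, 1090, 187.5, 117 and 40.5 in the same order of cell types, and Cdc20 had 1225.5, 1240.5, 184.5, 137 and 54. For Cdc20 the neutrophil and eosinophil levels were within 1.01-fold of each other. Cenpm, a protein of the inner kinetochore, was at 3 in mast cells and 9 in sDCs, with 57.5 in macrophages, 384 in neutrophils and 359 in eosinophils. Mast cells were the lowest cell type in 19 of the 27 mitosis members. The share of all genes lowest in mast cells was not counted.

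Not every mitosis gene had this form. Ncaph2, a condensin II subunit, lay between 2247.5 in neutrophils and 2944.5 in eosinophils, a 1.31-fold range over the 5 cell types. Ncapg2, which belongs to the same complex, was highest in macrophages, at 1237, and lowest in mast cells, at 135. Cdc27, a core APC/C subunit, ranged only from 867 in eosinophils to 1136 in neutrophils. Bub3, of the spindle checkpoint, had 3429.5 in eosinophils and 2976 in neutrophils and at most 1897.5 elsewhere, a gap of 1.57-fold. Plk3, a Polo-like kinase linked to stress responses, was highest in neutrophils (978) and macrophages (746.5) and was at 300.5 in eosinophils.

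Among the replication members, those with the pattern had smaller gaps. Cdc6 had untreated levels of 625 in neutrophils and 631 in eosinophils, beside 93.5 in macrophages, 47.5 in sDCs and 33.5 in mast cells, a gap of 6.62-fold. Mcm10, Prim1, Mcm5, Rrm1 and Orc1 also had the pattern, with gaps from 2.18-fold (Orc1) to 6.32-fold (Mcm10). Mcm5 stood at 2947 in neutrophils and 2496 in eosinophils, and at 551.5, 678 and 268.5 in macrophages, sDCs and mast cells. The subunit Mcm3 did not reach the limit: its levels were 2297.5 in neutrophils and 2534 in eosinophils, beside 1663.5 in mast cells, 1242 in macrophages and 781 in sDCs. Mcm6 likewise had 2196.5 in mast cells beside 3229 in neutrophils and 2722.5 in eosinophils. Among the subunits of polymerase delta, Pold3 was highest in macrophages (1539.5) and lowest in neutrophils (904.5), and Pold1 was highest in sDCs (1222). The 6 replication members with the pattern had a median gap of 3.88-fold, and the 19 mitosis members 6.61-fold.

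Of the 2 ribonucleotide reductase genes, Rrm1, the large subunit, had 907, 2975.5, 601, 630 and 2769 in macrophages, neutrophils, sDCs, mast cells and eosinophils. Rrm2b, the p53-inducible small subunit used for DNA repair outside S phase, had 355.5, 749, 673, 797.5 and 331.5. The 2 genes were in different orders, since Rrm2b was highest in mast cells and lowest in eosinophils.

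**Figure D2:**
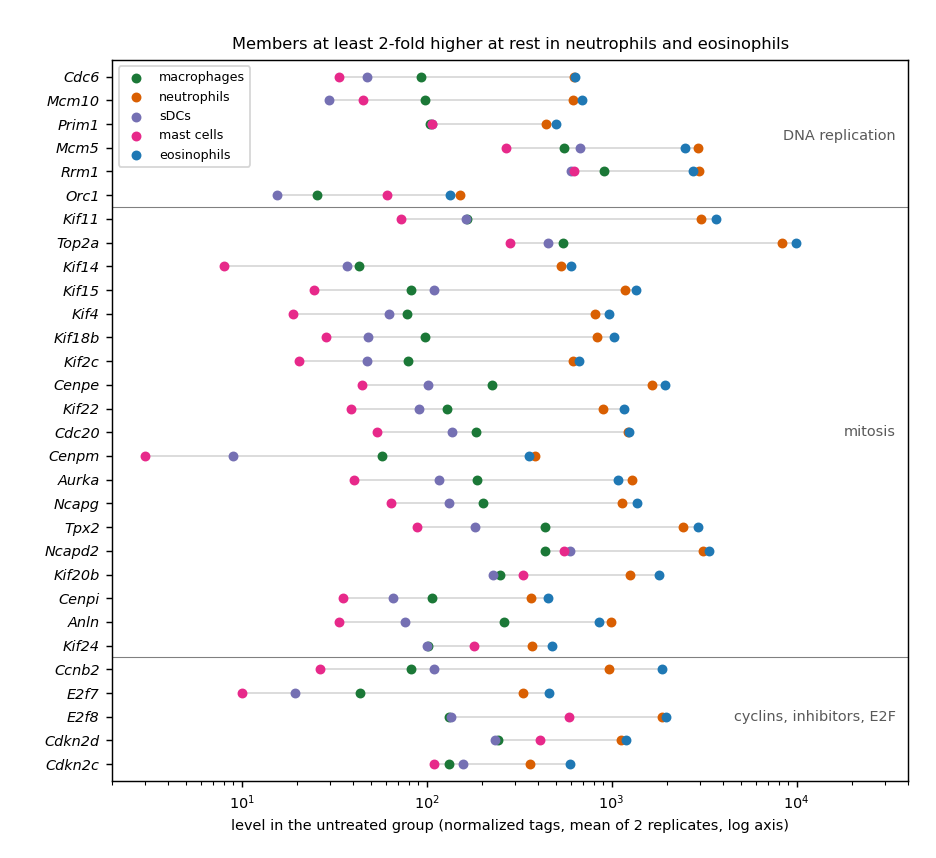
Untreated levels, on a log axis, of the 30 members that were at least 2-fold higher in both neutrophils and eosinophils than in each other cell type. Each point is 1 deposited mean of 2 replicates, grey lines join the lowest and highest cell type, and for Top2a the points run from 284 in mast cells to 9978.5 in eosinophils.

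Among the regulators, Ccnb2 had 969 in neutrophils, 1862 in eosinophils, 82 in macrophages, 110 in sDCs and 26.5 in mast cells, and of the 30 genes it had the largest difference between eosinophils and neutrophils (1.92-fold). E2f7 and E2f8, atypical E2Fs that repress transcription, had the pattern, with E2f8 at 1872, 1970, 132.5, 135.5 and 586.5 in the same order. Cdkn2c and Cdkn2d, which inhibit the kinases partnered by D cyclins, had it too. Levels of Cdkn2d were 1127.5 in neutrophils and 1204 in eosinophils, beside 411 in mast cells, 242 in macrophages and 233 in sDCs. The inhibitor Cdkn1a (p21) was nearly even, from 3451 in macrophages to 5198 in mast cells, while Cdkn1b (p27) was at 712.5 in macrophages and between 3343 and 4900 in the other 4 cell types.

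Ccnd2 ran against the rest. Its untreated level was 8622 in mast cells, 1737 in neutrophils, 577 in sDCs, 393 in eosinophils and 142.5 in macrophages, so that mast cells, lowest for most mitosis genes, led the next cell type 4.96-fold. It was the 1 member led by mast cells at least 2-fold, with 6.72% of all genes led in that way. Neutrophils led 1 member, Mcm3ap, 2.11-fold (3.18% of all genes), and sDCs and eosinophils led none (8.33% and 2.98%). Macrophages led 5 (9.07% of all genes), all of them from the class of others: Cdk20 with 1158 and at most 88 elsewhere, Kif3a with 2118.5 and at most 473 elsewhere, Cdk18 with 3081.5 and at most 1521.5 elsewhere, Kif5c with 97.5 and at most 21 elsewhere, and Cdc42ep1, at 86 in macrophages and listed at 0 in the other 4.

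Markers of other cells and of early stages were unequal at rest as well, in orders that differed between markers. The neutrophil population also held the early granule genes Mpo (22826), Elane (13402) and Prtn3 (8779.5), the eosinophil gene Epx (19128.5) and the B cell genes Cd79b (2143.5) and Pax5 (705.5). Summed over the 4 progenitor markers measured (of 6 listed), untreated levels were 47473 in neutrophils, 9229.5 in sDCs, 4519 in eosinophils, 4410 in mast cells and 17 in macrophages. Hbb-b1, a globin gene, read 4485.5 in neutrophils, 1155 in sDCs, 228 in macrophages, 3.5 in eosinophils and 2.5 in mast cells. Hbb-b2, another globin gene, had the pattern of the division genes, with 804 in neutrophils and 798 in eosinophils. Its other levels were 228 in sDCs, 165.5 in mast cells and 26.5 in macrophages. Over the 7 erythroid markers measured (of 8 listed), neutrophils summed to 10583.5 and eosinophils to 5259.5, mostly Gata1 (4309). Mast cells summed to 2963, sDCs to 2788.5 and macrophages to 634.5. Myb, a factor of dividing precursors, stood at 4059 in eosinophils, 3694.5 in mast cells, 2465.5 in neutrophils, 1438 in sDCs and 2 in macrophages. Their part in the result was not tested.

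A wider list of 93 cell cycle genes outside the name stems, of which 44 were in the table, served as a comparison. At rest 22 of the 44 (50%) were at least 2-fold higher in both neutrophils and eosinophils than in each other cell type. Among all genes measured at rest the share was 4.48%. This list too was chosen with earlier results of these data known, so it is not independent of the pattern.

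The effect of LPS was asked of each cell type against its own untreated group. The median over all genes, on the log2 scale, was -0.15 in macrophages and -0.14 in sDCs, and between -0.08 and -0.02 in the other cell types, and members are read beside these values. With LPS 27 of the 87 members were called in at least 1 cell type, beside 41.4% of all genes, and 8 in more than 1, beside 19.2%. In none of the 13 comparisons made here were 58 of 87 called, beside 54.2% of all genes.

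In macrophages LPS raised 5 of 87 members, where 12.7% of all genes were raised, and lowered 9, where 14.8% of all were lowered. Those raised were Ccnd2, Cdkn1a, E2f8, Cdc14a and Cdc42ep5, and those lowered were Ncapg2, Cdk20, Cdk18, Kif3a, Cdkn2c, Plk1s1, Kif21b, Pola1 and Kif21a. Ccnd2 went from 142.5 to 2181, a log2 fold change of 3.93, the largest of any member. Cdkn1a went from 3451 to 10820.5 (3.13-fold), and E2f8 from 132.5 to 393.5 (2.96-fold). In the other direction Ncapg2 went from 1237 to 296 and Cdkn2c, the p18INK4c inhibitor, from 131.5 to 49.5. Kif21a, at 3 in untreated macrophages, was listed at 0 with LPS, and it passed the minimum of 10 only through the group with both agents.

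The replication members of macrophages lay mostly below 0 on the log2 scale, 14 of 18, with a median of -0.39. Mcm3 was at 1242 untreated and 673 with LPS, and Mcm6 at 1399.5 and 993.5. Pola1, the catalytic subunit of polymerase alpha, went from 464 to 224.5 and was the only replication member called. The mitosis members had a median of 0.05, with 15 above and 12 below 0. Top2a was at 548.5 and 660.5, Cdc20 at 184.5 and 287, and Ccnb2 at 82 and 144.5.

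In sDCs 8 of 86 members were raised (9.04% of all genes) and 8 lowered (11.5%). Ccnd2 went from 577 to 6511 (11.3-fold) and Cdkn1a from 4687 to 11077.5 (2.36-fold). Tpx2, the spindle assembly factor that activates Aurka, went from 183 to 876.5 (4.77-fold). Orc1 (15.5 to 33), Cdc27 (1048.5 to 2234.5), Kif5c (21 to 57) and Kif21a (4.5 to 37) were the others raised from a level above 0, and Cdc42ep1 went from 0 to 10. Kif21a and Cdc42ep1 passed the minimum of 10 only through groups with LPS, so the filter fixed the direction of these 2 calls. The 8 lowered were Cdkn2c, E2f1, E2f7, Kif14, Kif15, Kif18b, Cdc42se2 and Cdk20. E2f1, the activating E2F, fell from 99 to 28, Cdkn2c from 158 to 44 and Kif15 from 109 to 46.5.

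Of the 11 spindle and cytokinesis members 9 were below 0 in sDCs, and their median log2 fold change was -0.59. The others were Tpx2 and Kif24, which was at 100.5 untreated, 181 with LPS and 117.5 with both. The 27 mitosis members as a class had a median of -0.43 in sDCs, with 18 below 0 and 8 above. The progenitor markers of sDCs summed to 9229.5 untreated and 2388 with LPS, with Mpo at 4890 and 714. Cd4, listed as a T cell marker, was at 2306.5 and 1092. Their part in the result was not tested.

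**Figure D3:**
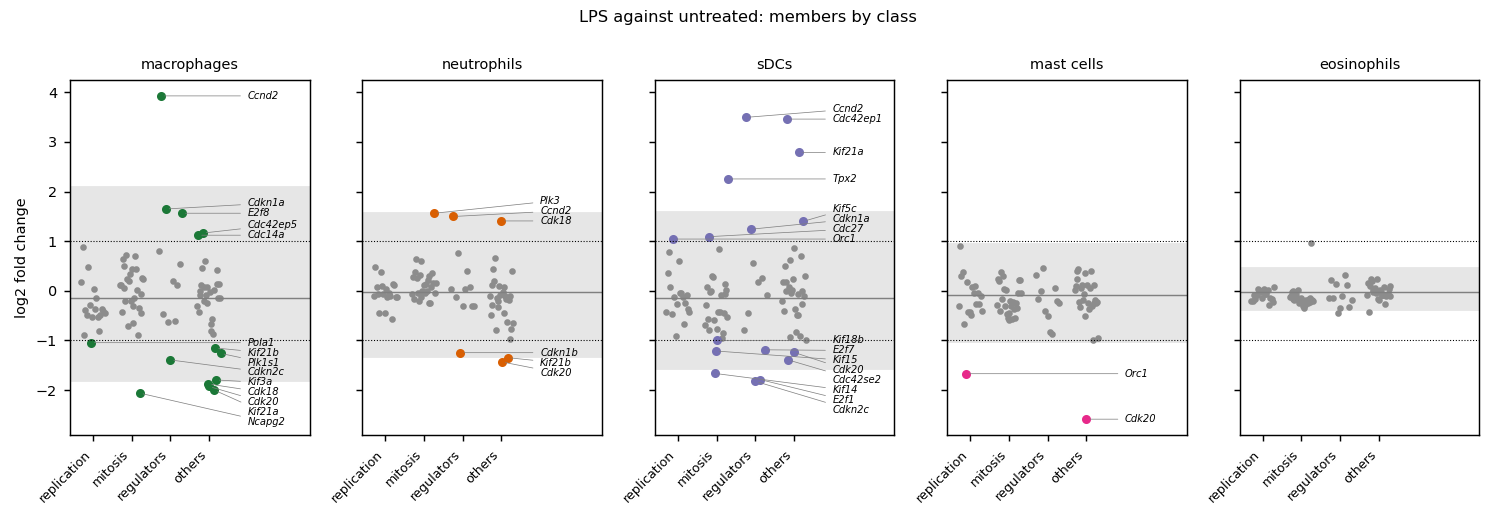
Log2 fold change of LPS against untreated for each member, by cell type and class. Coloured points with names reached 2-fold (dotted lines), grey points did not, the grey line is the median of all genes and the grey band runs from the 5th to the 95th percentile of all genes. Ccnd2 lies highest in macrophages (3.93) and sDCs (3.49), and no eosinophil point is coloured.

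Neutrophils had 3 of 84 members raised (8.71% of all genes) and 3 lowered (7.88%). Plk3 went from 978 to 2890.5 (2.95-fold), Ccnd2 from 1737 to 4906.5 (2.82-fold) and Cdk18 from 178 to 474. Cdkn1b went from 3343 to 1409.5 (2.37-fold lower), Kif21b from 4941.5 to 1942.5 and Cdk20 from 88 to 32. The division genes that were high in these cells at rest were high with LPS as well. Top2a stood at 8354.5 and 8154.5, Kif11 at 3060 and 2792.5, and Mcm5 at 2947 and 2814.5. The 27 mitosis members had a median log2 fold change of 0.12, with 15 above and 12 below 0. The 5 neutrophil markers measured (of 11 listed) summed to 273011 untreated and 37278.5 with LPS, and the progenitor markers to 47473 and 42356. In the same groups the 4 macrophage markers measured (of 11 listed) summed to 7588.5 and 18173, with Emr1 at 4346 and 14667.5. The erythroid markers summed to 10583.5 and 6367, and the B cell markers to 4707.5 and 3487. Their part in the result was not tested.

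Mast cells had no member raised (4.76% of all genes) and 2 of 82 lowered (5.46%). Cdk20 went from 32 to 4.5 and Orc1 from 61 to 18.5. Ccnd2, already high, was at 8622 untreated and 7675.5 with LPS. Mcm10 had the largest log2 fold change in the upward direction, 0.91, from 45.5 to 86.5. Myb stood at 3694.5 untreated and 9821.5 with LPS in the same cells, and its part in the result was not tested.

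In eosinophils 0 of 83 members reached 2-fold in either direction, where 2.16% of all genes were raised and 0.702% lowered. The member nearest to the limit was Plk3, at 300.5 untreated and 591 with LPS (1.96-fold). Of the 27 mitosis members 25 were below 0, with a median of -0.17 beside -0.02 over all genes. Most of them are high in untreated eosinophils, the reference of this comparison. Top2a was at 9978.5 and 8734.5, and Kif11 at 3676 and 3112. No called change and no replicate values stand behind these differences.

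Among regulators called with LPS, Ccnd2 was raised in macrophages, neutrophils and sDCs, and its eosinophil levels were 393 and 456. Cdkn1a was raised in macrophages and sDCs, at 4129 and 7041 in neutrophils (1.71-fold), 5198 and 7191.5 in mast cells and 4131.5 and 4569 in eosinophils. Its level with LPS was above the untreated level in all 5 cell types. Cdkn1b went both ways without being called outside neutrophils: it was at 4900 and 7272.5 in sDCs, 712.5 and 458 in macrophages, 3510 and 2667 in mast cells and 4536 and 3327.5 in eosinophils. Cdk20 was lowered in 4 of the 5 cell types, from 1158 to 304 in macrophages and from 52 to 21.5 in sDCs, and it read 28.5 and 25 in eosinophils. Outside macrophages all its levels were 205 or lower.

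On the wider list, LPS raised 4 of 44 genes and lowered 2 in macrophages, beside 12.7% and 14.8% of all genes. It raised 7 and lowered 6 in sDCs (9.04% and 11.5% of all), raised 1 and lowered 0 in neutrophils (8.71% and 7.88%), raised 4 and lowered 1 of 43 in mast cells (4.76% and 5.46%), and called 0 in eosinophils (2.16% and 0.702%). Pttg1, securin, the inhibitor of separase, was the gene of this list called most often. It went from 521 to 1907 in neutrophils, from 471 to 1222.5 in macrophages, from 574 to 1356.5 in mast cells and from 256.5 to 747 in sDCs, and was at 641 and 889 in eosinophils. With both agents neutrophils held 733 (a log2 fold change of -1.38 from LPS alone), macrophages 806.5, mast cells 874 and sDCs 411.5.

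**Figure D4:**
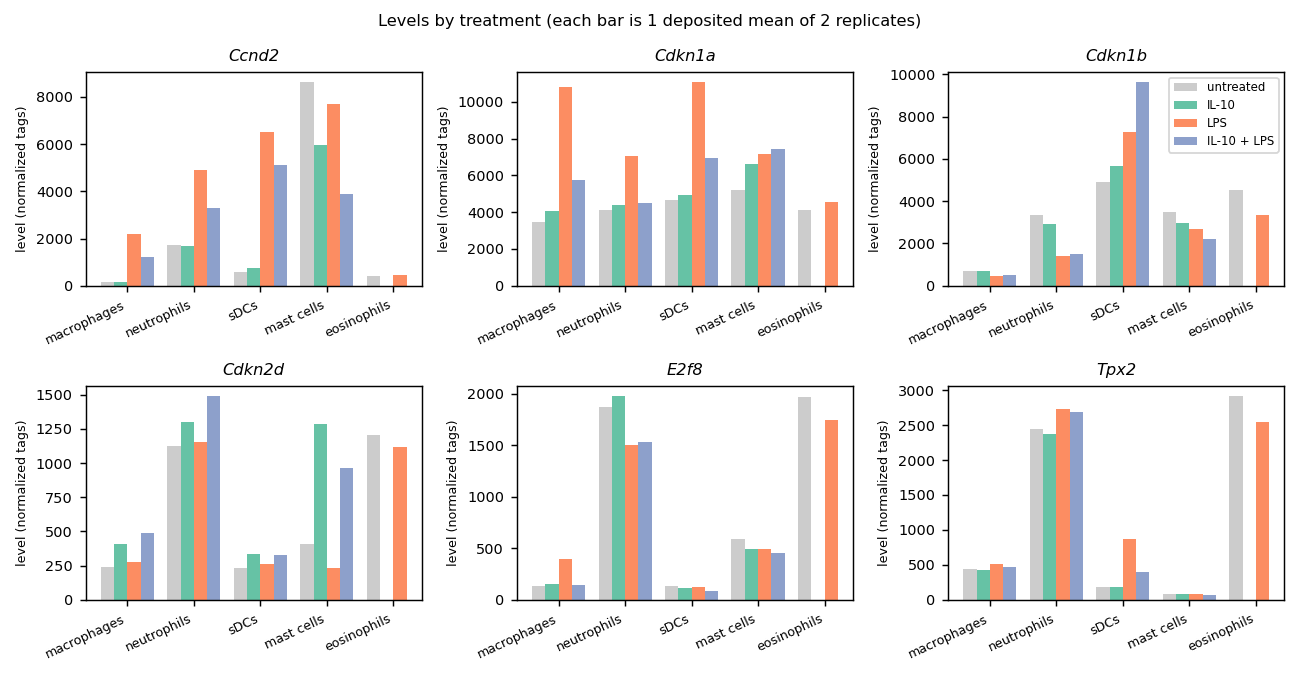
Levels of 6 members by cell type and treatment on linear axes that start at 0; each bar is 1 deposited mean of 2 replicates, and eosinophils had no group with IL-10. Ccnd2 reaches 6511 in sDCs with LPS, and Cdkn2d in mast cells reads 411 untreated and 1287.5 with IL-10.

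IL-10 alone left the levels of nearly all members within 2-fold of the untreated group. In macrophages 0 of 87 members were called, with 2.34% of all genes raised and 2.14% lowered. In neutrophils 1 of 84 was raised (1.26% of all genes) and none lowered (0.908%), and in sDCs 1 of 86 was raised (1.6%) and none lowered (0.826%). Both calls were Cdk20, which went from 88 to 205 in neutrophils and from 52 to 119 in sDCs, and stood at 1158 and 1493.5 in macrophages. These values and those with LPS above share the untreated group.

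Mast cells also had 1 of 82 members raised by IL-10 (2.25% of all genes) and none lowered (2.79%). It was Cdkn2d, which went from 411 to 1287.5 (3.13-fold). Elsewhere Cdkn2d read 242 untreated and 411 with IL-10 in macrophages, 233 and 335 in sDCs, and 1127.5 and 1299 in neutrophils. In each of the 4 cell types its IL-10 level was the higher of the pair, and only in mast cells by more than 2-fold.

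The comparison of IL-10 plus LPS with LPS alone asked what IL-10 given first does to the response. In mast cells 1 of 82 members was raised (2.88% of all genes) and none lowered (4.66%), and it was again Cdkn2d, which went from 229.5 to 962 (4.18-fold). This pair of groups shares no sample with the pair without LPS. With LPS and with both, the levels were 278 and 491 in macrophages, 265 and 327 in sDCs, and 1152.5 and 1490.5 in neutrophils.

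Neutrophils had 1 of 84 members raised by IL-10 on top of LPS (3.06% of all genes) and none lowered (3.87%). That member was Cdk20, from 32 to 90, so that with both agents it was near its untreated level of 88. In sDCs 1 of 86 was raised (2.61%) and 3 lowered (2.08%). E2f1 went from 28 to 67.5, and Tpx2 from 876.5 to 403, beside an untreated level of 183. The other 2 lowered, Cdc42ep1 (10 to 3.5) and Kif21a (37 to 18), had passed the minimum of 10 only through groups with LPS.

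Macrophages had 1 of 87 raised (3.12% of all genes) and 3 lowered (4.58%) in this comparison. E2f8 went from 393.5 to 138.5, close to its untreated level of 132.5, Cenpm from 95 to 16 and Kif5c from 88 to 32. Kif21a was the member raised, listed at 0 with LPS and at 11 with both, and since it passed the minimum only through the group with both, the filter fixed that call.

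Ccnd2 and Cdkn1a had lower levels with both agents than with LPS alone in macrophages, neutrophils and sDCs, but for these 2 genes no difference reached 2-fold. Ccnd2 was at 2181 with LPS and 1230.5 with both in macrophages, 6511 and 5110 in sDCs, and 4906.5 and 3278 in neutrophils. In mast cells, where LPS had not raised it, it was at 7675.5 and 3870.5 (1.98-fold). Cdkn1a had 10820.5 and 5755 in macrophages (1.88-fold), 11077.5 and 6944.5 in sDCs, 7041 and 4509.5 in neutrophils, and 7191.5 and 7429.5 in mast cells. The comparisons with LPS against untreated and with both against LPS share the LPS group.

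For the 27 mitosis members (26 in mast cells), medians with IL-10 lay near 0. The median log2 fold change of IL-10 plus LPS against LPS was -0.08 in macrophages, 0.15 in sDCs, -0.06 in mast cells and -0.03 in neutrophils, and for IL-10 against untreated it was -0.10, 0, -0.11 and -0.03. Top2a in neutrophils read 8354.5 untreated, 8322 with IL-10, 8154.5 with LPS and 8154.5 with both.

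**Figure D5:**
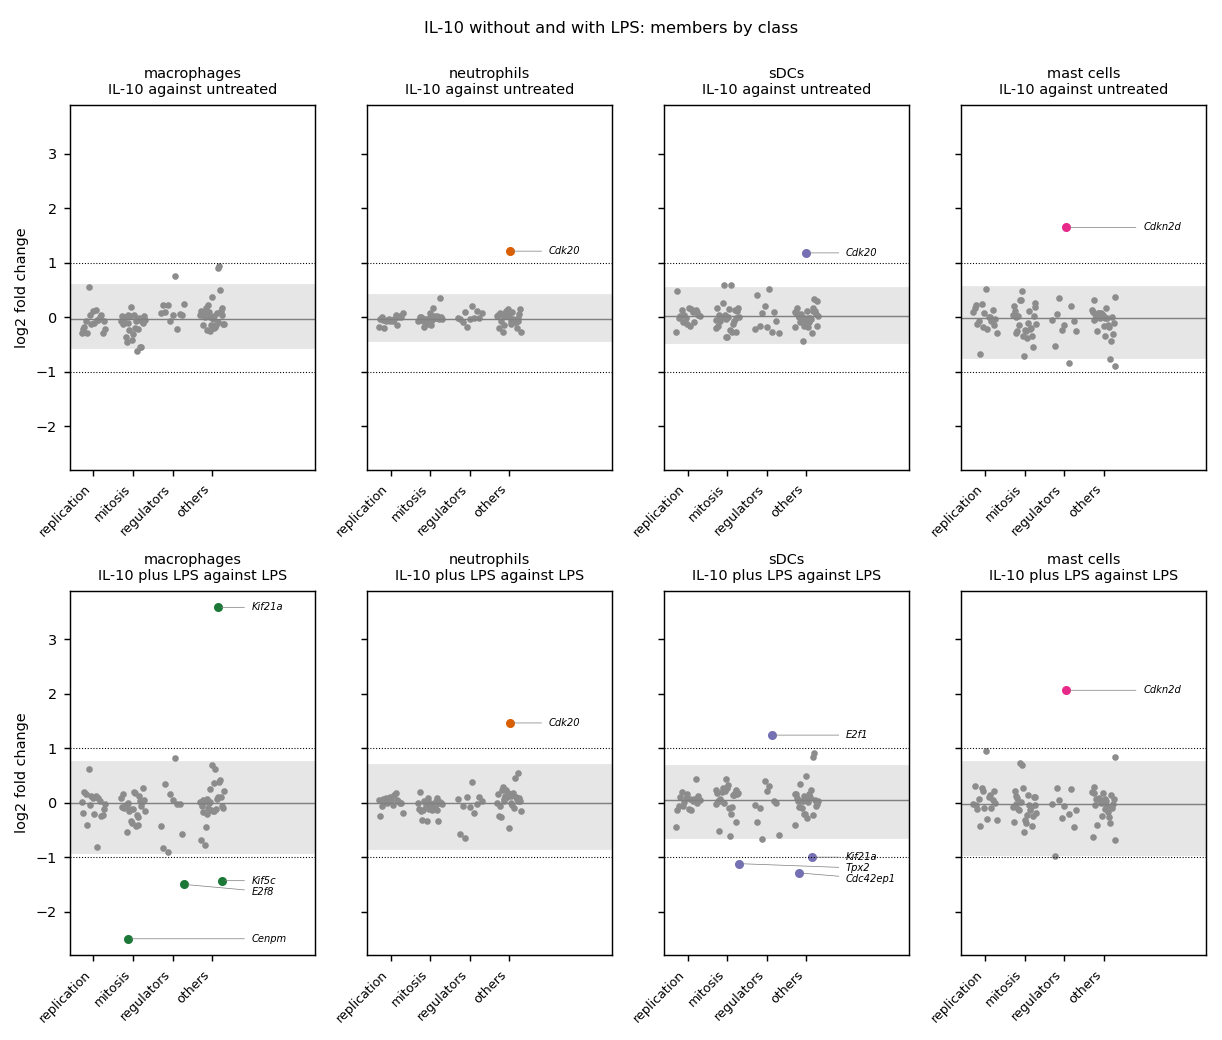
Log2 fold change of each member for IL-10 against untreated (top row) and for IL-10 plus LPS against LPS (bottom row) in the 4 cell types that received IL-10. Named points reached 2-fold, the grey band runs from the 5th to the 95th percentile of all genes, and Cdkn2d in mast cells lies at 1.64 above and 2.06 below.

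Of the 87 members 51 were represented by more than 1 transcript, up to 9 for Ncaph2, and the split of tags between transcripts is an estimate. For Top2a the leading transcript, ENSMUST00000068031, held 81.4% of the tags and had the same order of cell types at rest, with 7640 in eosinophils, 7023 in neutrophils, 451 in macrophages, 358 in sDCs and 243 in mast cells. Tpx2 in sDCs was raised by LPS in ENSMUST00000109816 (120 to 678.5) and in ENSMUST00000164120 (55 to 198), while ENSMUST00000028969 was at 8 and 0. The 2 transcripts of Cdkn1b were both lower with LPS in neutrophils, ENSMUST00000003115 at 1749 and 717 and ENSMUST00000067327 at 1594 and 692.5. E2f1 was less uniform: in macrophages ENSMUST00000000894 carried most of its untreated level (539.5 beside 180.5 for ENSMUST00000103145), and in neutrophils the order was the reverse (144 and 483).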

How the data were processed

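RNA-seq was carried out on 36 libraries in 18 groups. One further sample of the series, CD4+ T cells given anti-CD3 and anti-CD28 for 24 h, has no column in the table and was not used here. Reads were aligned by the authors with bowtie 0.12.9 to Ensembl transcripts (mm9) and quantified by RSEM 1.2.1. GC content was corrected with EDASeq and the 2 replicates of a group were averaged, so that the deposited values have the unit score (normalized tags). Every value is a multiple of 0.5, and all 18 columns share the maximum of 185338. Of 17015 complete lines in the copy (1 more is cut short), 22 (0.129%) carried no gene name and were dropped, and 16993 transcripts of 6509 genes remained. Columns of other samples numbered 0.

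Transcripts were summed per gene with Python 3.11.15, numpy 2.4.6 and pandas 2.3.3, and drawn with matplotlib 3.10.9. A gene entered the comparisons of a cell type when at least 1 of its groups there had a sum of 10. Fold changes are on the log2(sum + 1) scale, which understates changes of low genes, and 2-fold was called. At rest, genes with an untreated sum of at least 10 were compared. The counting was checked by putting known changes, without noise, into copies of the untreated columns. This tests the counting step only and not the error of a call. Means per group allow no test, no error, no interval and no replicate left out. In the methods the macrophage replicates were of unequal depth, and sDC libraries and 1 of the 2 mast cell replicates were TruSeq preparations, so that levels between cell types also carry library type.

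Members and lists were chosen with earlier results of these data known. Genes named were the core list (22 of 46 in the table), the 5 largest called changes in each direction with a sum of at least 50, the 5 largest leads at rest, the members nearest the limit of 10 and genes of the wider list called with LPS in most cell types. Members called at lower sums, and examples given for contrast, were named after their values were seen. Alternatives were a 1.5-fold limit, 10 added before the log, a minimum of 50 or none, the leading transcript in place of the sum, centring on the median of all genes, and, at rest, means over all groups.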

Additional observations from a re-analysis of the deposited data

Results flagged for a closer look

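Cdk18, a kinase of the PCTAIRE family, was called in opposite directions by LPS: its log2 fold change was -1.88 in macrophages (3081.5 to 839) and 1.41 in neutrophils (178 to 474). Orc1, a subunit of the origin recognition complex, had a log2 fold change of 1.04 in sDCs (15.5 to 33) and -1.67 in mast cells (61 to 18.5), all at low levels. In both cases the difference between cell types was not tested, since the table holds 1 mean per group.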

How the results depend on the processing

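No paired analysis was possible because the table holds group means, and for the same reason no replicate could be left out. Of 186 alternative values for counts of members, 142 stayed within 1.5 times the count reported and 44 did not. No direction turned. Centring on the median of all genes moved no count by more than 1.5 times (with LPS, 6 raised and 8 lowered in macrophages and 9 and 7 in sDCs), and the 30 members higher at rest in neutrophils and eosinophils became 30 to 34, under alternatives chosen after seeing the data. A limit of 1.5-fold, which calls more genes by construction, gave 11 raised and 19 lowered by LPS in macrophages, 7 and 8 in neutrophils, 14 and 21 in sDCs, 1 and 8 in mast cells and 1 raised in eosinophils. With IL-10 it gave 3 raised and 1 lowered in macrophages, 2 raised in sDCs and 5 lowered in mast cells. With both against LPS it gave 5 and 8 in macrophages, 1 lowered in neutrophils, 3 and 6 in sDCs and 5 and 3 in mast cells. At rest it gave 2 members led by neutrophils, 3 by sDCs and 3 by eosinophils. Without a minimum, LPS raised 5 in neutrophils and 1 in eosinophils, IL-10 lowered 1 each in neutrophils and sDCs, and both against LPS lowered 1 in neutrophils. A minimum of 50, which tests fewer genes, left 5 raised and 5 lowered by LPS in sDCs, 1 lowered in mast cells, and, for both against LPS, 0 raised in macrophages and 1 lowered in sDCs. Adding 10 before the log left 5 lowered by LPS and 1 lowered by both against LPS in sDCs. The leading transcript gave 2 raised by IL-10 in macrophages and 2 lowered in mast cells. For both against LPS it gave 8 lowered in macrophages, 2 raised and 5 lowered in sDCs, and 2 raised and 1 lowered in mast cells, and at rest 0 members led by neutrophils. Means over all groups gave 1 led by sDCs. The cause was not tested for the last 3 settings. Of single genes, Cdk20 in sDCs with LPS fell short of 2-fold with 10 added (-0.98) and by its leading transcript (-0.87). By the leading transcript Cdc14a in macrophages with LPS was at 2.05, Orc1 in mast cells with LPS at -2.64 and E2f1 in sDCs with both against LPS at 2.30, all on the log2 scale.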
